A study of Mus musculus with 2 samples.

Results

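Cholesterol synthesis was followed in the submandibular gland epithelium of young and aged mice through 8 genes, namely Hmgcs1, Idi1, Fdps, Fdft1, Sqle, Lss, Insig1 and Srebf2. They were found by their names in the deposited scanner files, among 36866 gene names on the array, and all of their probes were used, which came to 14 of 56597 probes. The set holds 6 enzymes of the synthesis pathway and 2 regulators of it, and no gene of cholesterol uptake, although it was proposed as a set for synthesis and uptake. Genes of uptake were therefore described from a separate list. The young group was a female C57BL/6 mouse aged 9 weeks, and the aged group was a female C57BL/6 mouse aged 24 months (C57BL/6N in the study's methods). The labels name no transgene or treatment for either group, and in both the cells were taken from the digested submandibular gland with magnetic beads against EpCAM, a surface protein of epithelial cells. Beads of this kind enrich epithelial cells without removing all others. According to the study's methods, young mice came from a commercial breeder and aged mice from the animal facility of an institute, so that age and origin cannot be told apart. There was 1 array per age, so no difference below has a replicate check, no test between the ages was made, and no p-value is given.

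Cholesterol is built from acetyl-CoA. In the mevalonate steps, Hmgcs1 (HMG-CoA synthase) acts on the way to mevalonate, and Mvk, Pmvk, Mvd, Idi1 and Fdps turn mevalonate into farnesyl diphosphate, which also feeds protein prenylation, dolichol and coenzyme Q. In the sterol steps, Fdft1 makes squalene, Sqle oxidizes it, Lss closes the rings to give lanosterol, and Cyp51 and later enzymes finish the molecule. Srebf2 encodes SREBP-2, the transcription factor that switches on this pathway when membranes are short of sterol, and Insig1 holds SREBP-2 and its escort Scap in the endoplasmic reticulum when sterol is plentiful. Epithelial cells of secretory glands use cholesterol for their membranes, including those of secretory granules.

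The arrays read each gene through oligonucleotide probes, and 3 of the genes were read by several probes that gave a usable signal. Their sequences are shown because the agreement between probes of 1 gene is an internal check on a difference. The first 30 bases of each probe are given, 5′ to 3′, as the files hold them.
Lss probe A_51_P296487: cgcttaaagttcttggactagcttcagtga
Lss probe A_55_P2807240: ggcactccacacatggtacatagacataca
Lss probe A_52_P118161: gctgatcatacacagccaatcacgcgcaca
Fdft1 probe A_66_P111208: cccttgtttttcctcctactctaaaatctt
Fdft1 probe A_55_P2033250: agagatttatcactggatccccaactcaga
Srebf2 probe A_55_P2740132: tccctcctccctcatgcttatcctcatccc
Srebf2 probe A_51_P377508: aactaggtctttgcaccagagagcattttg
The coordinates in the files are on NCBI37 (mm9). The Lss probes lie on the plus strand at chr10:76015992-76016051, chr10:76016592-76016651 and chr10:76019513-76019572, and their starts are 600 and 2921 bases apart in both the transcript and the genome. The Fdft1 probes lie on the minus strand, A_66_P111208 at chr14:63765457-63765516 and A_55_P2033250 across chr14:63765750-63769990, a span longer than the probe itself. The Srebf2 probes lie on the plus strand, A_55_P2740132 at chr15:82035495-82035554 and A_51_P377508 at chr15:82034765-82034824. Exons and untranslated regions under the probes are not given here, since no annotation of this build was used.

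The value of a probe is its processed intensity, the brightness of the spot after background subtraction, given below with the error that the scanner software assigned to it. Differences were taken as log2 of the aged over the young array after each intensity had been divided by the 75th percentile of its array (256 for the young and 198 for the aged sample). A difference of 0 is therefore a gene that kept its place relative to that percentile, even where its intensity was lower on the aged array. A probe counted as measured when its spot was well above background. Of the 14 probes, 12 were measured on both arrays and 2 on neither, and no spot of these genes was saturated or marked as an outlier. All 8 genes were measured on both arrays, and where several probes were measured the brightest one stood for the gene.

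Of the enzymes of the mevalonate steps, none of the 3 in the set differed by 1.5-fold. Hmgcs1 had an intensity of 1036 ± 104 in the young sample, against 668 ± 66.9 in the aged sample (software error, probe A_55_P2032966), a log2 difference of -0.26, which was the lowest of the 8 genes. The other Hmgcs1 probe, A_52_P119039, was not well above background in either sample. Idi1, which converts isopentenyl diphosphate into its isomer, had an intensity of 220.1 ± 22.2 in the young sample, against 159.9 ± 16.3 in the aged sample, giving a log2 difference of -0.09. Fdps, which joins these units into farnesyl diphosphate, had an intensity of 2714 ± 271 in the young sample, against 2411 ± 241 in the aged sample, giving a log2 difference of 0.20. The software error of a difference between the arrays was 0.20 on the log2 scale (median over the 8 genes), so Idi1 and Fdps lay within it and Hmgcs1 a little beyond it. This error covers the spot, not the difference between animals.

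Of the 3 enzymes of the sterol steps in the set, Lss was past 1.5-fold, and it was higher on the aged array by each of its probes. Its brightest probe, A_55_P2807240, had an intensity of 561 ± 56.2 in the young sample, against 695 ± 69.6 in the aged sample, giving a log2 difference of 0.68 with a software error of 0.20, or 1.60-fold. Probe A_52_P118161 had an intensity of 174 ± 17.7 in the young sample, against 262 ± 26.4 in the aged sample, giving a log2 difference of 0.96. Probe A_51_P296487 had an intensity of 110.5 ± 11.6 in the young sample, against 137 ± 14.2 in the aged sample, giving a log2 difference of 0.69. The 3 differences ranged over 0.28 on the log2 scale. For comparison, the 5677 genes with several probes measured on both arrays had a median range of 0.25 between their probes, and 285 probes printed in 8 or more spots had a median SD of 0.033 over those spots. The Lss probes were also the only 3 of the 12 measured probes of the set with a higher intensity on the aged array before any scaling, while the other 9 were brighter on the young array.

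Fdft1, the squalene synthase that commits farnesyl diphosphate to sterols, had an intensity of 1162 ± 116 in the young sample, against 897 ± 89.8 in the aged sample by probe A_66_P111208, a log2 difference of -0.0017. Its probe A_55_P2033250 had an intensity of 343 ± 34.4 in the young sample, against 230.0 ± 23.2 in the aged sample, giving a log2 difference of -0.21. Both values lay within or at the software error of a difference, and they were 0.20 apart. Sqle, the squalene epoxidase and a second control point of the pathway, had an intensity of 613 ± 61.4 in the young sample, against 536 ± 53.7 in the aged sample (probe A_55_P1975185), a log2 difference of 0.18. Its other probe, A_55_P2716707, was not well above background in either sample. Thus the enzymes immediately before Lss in the pathway, Fdft1 and Sqle, differed by less than 1.5-fold.

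Neither regulator in the set differed by 1.5-fold. Srebf2 had an intensity of 3949 ± 395 in the young sample, against 3241 ± 324 in the aged sample by probe A_55_P2740132, a log2 difference of 0.09, and 78.6 ± 8.48 in the young sample, against 59.6 ± 6.77 in the aged sample by probe A_51_P377508, a log2 difference of -0.03. The pair of differences was 0.11 apart, with 0 between them. Insig1 had an intensity of 190.5 ± 19.4 in the young sample, against 156 ± 16.1 in the aged sample, giving a log2 difference of 0.09.

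**Figure D1:**
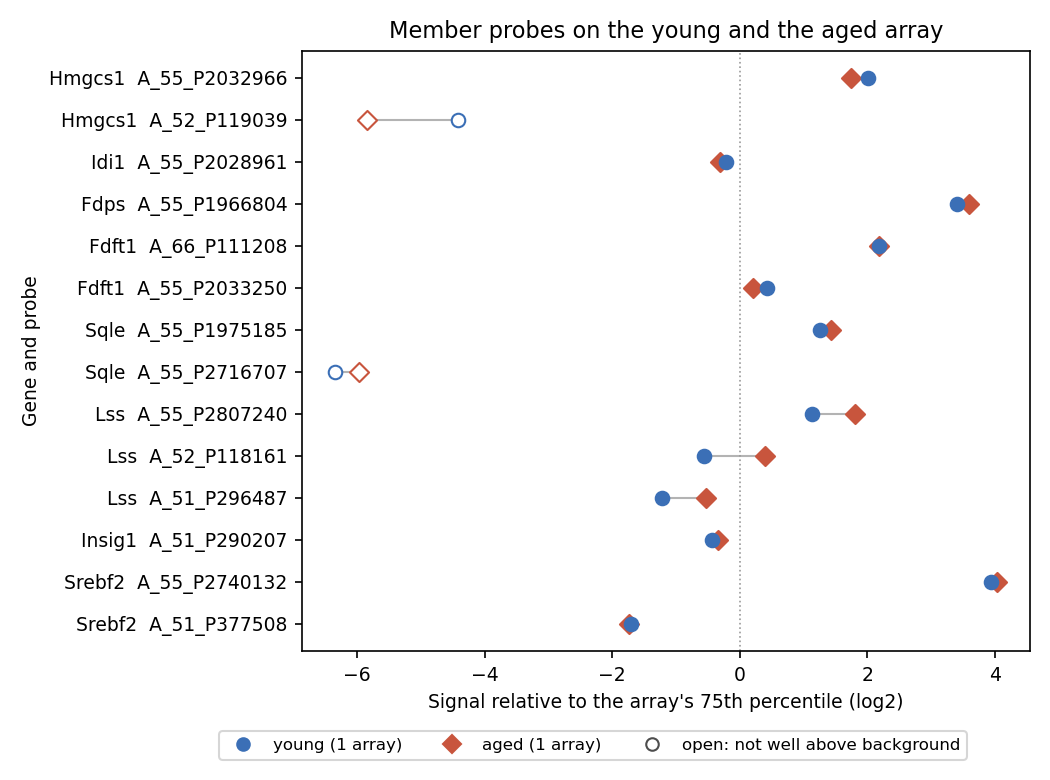
Each row is 1 probe of the 8 genes, and the x axis gives its log2 intensity relative to the 75th percentile of the array, with circles for the young and diamonds for the aged array (1 array each, no error bars). Open symbols are the 2 probes not well above background in either sample. The 3 Lss probes lie to the right on the aged array by 0.68 to 0.96, while the other 9 measured probes differ by no more than 0.26 in size.

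None of the 8 genes was 2-fold higher or lower on the aged array, beside 1.51% (higher) and 3.04% (lower) of the 18693 genes measured on both arrays. At 1.5-fold, 1 of 8 was higher, Lss, beside 9.82% of all genes, and 0 of 8 were lower, beside 7.39% of all genes. A single gene of 8 past 1.5-fold is near the share of all genes and is no result about the set. The difference was above 0 for 5 of the 8 genes and below 0 for 3, and 59.9% of all genes were above 0. The median difference of the 8 genes was 0.09, and the median of all genes was 0.09 as well. Between the lower and the upper quartile of all genes, -0.17 and 0.34, lay 6 of the 8 genes, all but Lss and Hmgcs1. Of all genes, 5.71% had a higher difference than Lss and 18.8% had a lower one than Hmgcs1. Without Lss, the other 7 genes lay between -0.26 and 0.20 on the log2 scale. Lss exceeded the median of the other 7 by 0.59 and the highest of them, Fdps, by 0.48.

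The other enzymes of the pathway were taken from a list of 22 genes that also holds the 6 enzymes above. Acat2 had no probe under this name, Idi2 was not well above background in either sample, and 20 of the 22 were measured on both. Of these 20, 3 were higher in the aged sample by 1.5-fold or more, 1 was lower by as much, and none reached 2-fold in either direction, beside 9.82% and 7.39% of all genes past 1.5-fold upward and downward. The median difference was 0.18 over the 20 genes and 0.18 over the 14 of them outside the set of 8, beside 0.09 for all genes. Of those 14, 11 were above 0 and 3 below it.

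Mvd, the decarboxylase that ends the conversion of mevalonate into isopentenyl diphosphate, had an intensity of 46.3 in the young sample, against 64.2 in the aged sample, and its log2 difference of 0.84 was the largest of the list. It was read by 1 measured probe with a software error of 0.23. Hsd17b7, a reductase of the late sterol steps, had an intensity of 104 in the young sample, against 128 in the aged sample, giving a log2 difference of 0.67 by 1 measured probe. The 3 enzymes past 1.5-fold upward, Mvd, Lss and Hsd17b7, lay at separate places along the pathway. Hsd17b7 was short of 1.5-fold with the 75th percentile over measured probes (0.56), the spike-in controls (0.42) and normexp (0.47), and Mvd with normexp (0.50).

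Cyp51, the demethylase that acts on the lanosterol made by Lss, was the enzyme past 1.5-fold downward, and its probes disagreed. Probe A_55_P2792294 had an intensity of 256 in the young sample, against 128 in the aged sample, giving a log2 difference of -0.63. Probe A_51_P485791 was well above background only on the aged array, with an intensity of 22.2, where it was at least 2.04-fold higher than on the young array, so that no direction can be given for Cyp51 as a gene. Dhcr7, a reductase of the last steps, had an intensity of 146 in the young sample, against 120 in the aged sample, giving a log2 difference of 0.09.

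**Figure D2:**
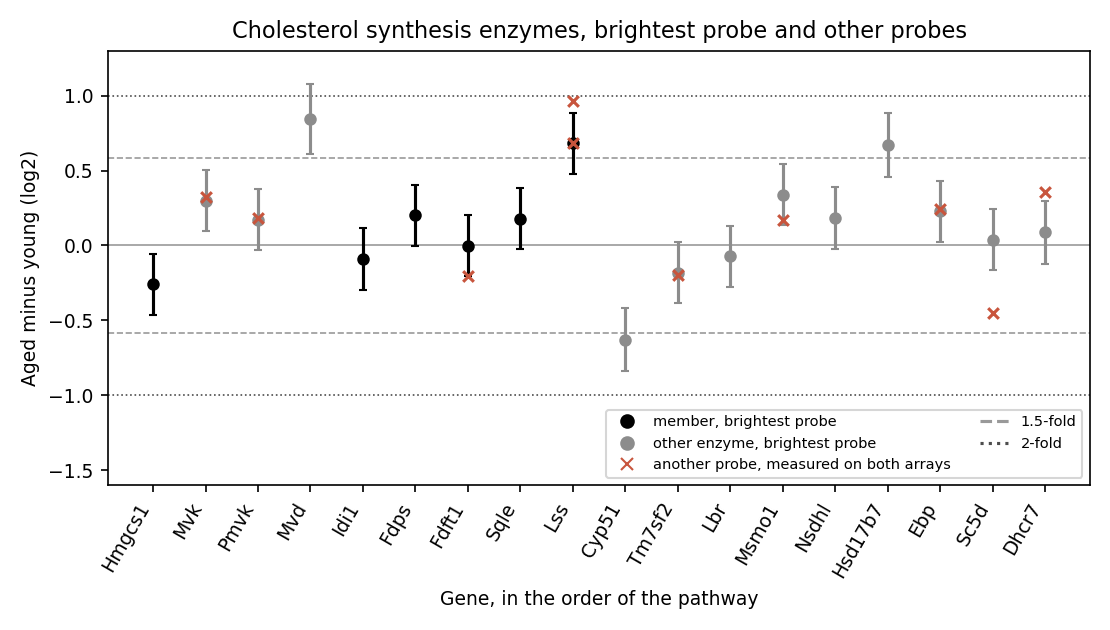
The y axis is the log2 difference, aged minus young, and the x axis lists 18 of the 20 synthesis enzymes measured on both arrays, in the order of the pathway. Circles are the brightest probe with the software error of the spot (black for the 6 enzymes of the set, grey for the others), crosses are further probes measured on both arrays, and lines mark 1.5-fold and 2-fold. Mvd, Lss and Hsd17b7 lie above the upper 1.5-fold line at 0.84, 0.68 and 0.67, and Cyp51 lies below the lower one at -0.63.

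Around Srebf2 and Insig1, a list of 10 regulators of SREBP was measured on both arrays in full, with a median difference of 0.09. Past 1.5-fold, 1 of them was higher in the aged sample and 0 were lower, beside 9.82% and 7.39% of all genes. The higher one was Srebf1, which encodes the related factor SREBP-1 that mainly serves fatty acid synthesis. Srebf1 had an intensity of 6844 in the young sample, against 8593 in the aged sample, for a log2 difference of 0.70. It was short of 1.5-fold with quantile normalization (0.24), loess (0.27) and the spike-in controls (0.45). Scap, the escort of SREBP, had an intensity of 4018 in the young sample, against 3411 in the aged sample, giving a log2 difference of 0.14. Insig2, the paralogue of Insig1, had an intensity of 726 in the young sample, against 529 in the aged sample, giving a log2 difference of -0.09. Of 14 genes of fatty acid synthesis, among them Acaca, Fasn and Scd1, 13 were measured on both arrays. None of these differed by 1.5-fold by the brightest probe, and their median was -0.02. Some further probes did differ by as much. An Acaca probe measured only on the aged array was at least 6.05-fold higher there, and an Acss2 probe gave -1.51. For Fads2, a further probe gave 1.70, and another, measured only on the young array, was at least 4.86-fold higher there.

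Genes of cholesterol uptake and release from lysosomes included 3 that were lower in the aged sample by 1.5-fold or more. Of 12 listed genes, 10 were measured on both arrays, and past 1.5-fold 0 of these were higher and 3 were lower, beside 9.82% and 7.39% of all genes. Of the 10, 9 were below 0 (4 with centring on the median) and 1 was above it, while 59.9% of all genes were above 0. The median difference of the 10 was -0.13, beside 0.09 for all genes. Over the alternatives the median ranged from -0.39 (mean over kept probes) to 0.04 (centring on the median, which left 1 gene past 1.5-fold). Normexp background correction left 0 past 1.5-fold, with Lipa at -0.52, although Lipa, Lrp1 and Scarb1 lay below 0 under each alternative. The gene past 2-fold was Lipa, the lysosomal acid lipase that frees cholesterol from its esters, with an intensity of 95.6 in the young sample, against 28.2 in the aged sample, for a log2 difference of -1.39. Lrp1, an endocytic receptor for lipoprotein remnants, had an intensity of 125 in the young sample, against 57.9 in the aged sample, giving a log2 difference of -0.74. Scarb1, the HDL receptor, had an intensity of 415 in the young sample, against 206 in the aged sample, giving a log2 difference of -0.64. Each of the 3 had 1 probe measured on both arrays, and a further Scarb1 probe was well above background only in the young sample.

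Of 10 genes of cholesterol efflux, esterification and oxysterols, each was measured on both arrays. Past 1.5-fold, 0 were higher and 1 was lower, beside 9.82% and 7.39% of all genes. The median was 0.03, which ranged from -0.22 to 0.21 over the alternatives. The lower one was Apoe, an apolipoprotein that carries lipids between cells, with an intensity of 18114 in the young sample, against 7095 in the aged sample, for a log2 difference of -0.98, and its second probe gave -0.93. Of 11 genes of the isoprenoid branches that leave the pathway at farnesyl diphosphate, each was measured on both arrays. Past 1.5-fold, 1 was higher and 0 were lower, beside the same shares of all genes (9.82% and 7.39%), and the median was 0.14. The higher one was Dhdds, a subunit of the enzyme that makes dolichol for protein glycosylation, with an intensity of 417 in the young sample, against 545 in the aged sample, for a log2 difference of 0.76. A second Dhdds probe gave 0.53, short of 1.5-fold, and the brightest one was short of it with the spike-in controls (0.51).

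**Figure D3:**
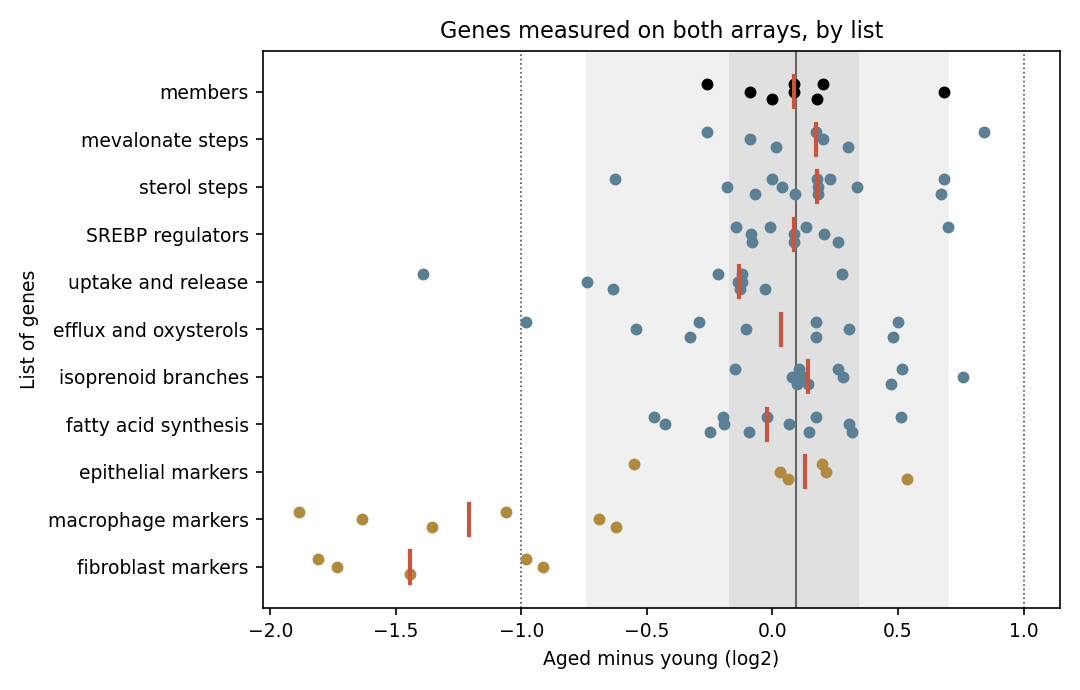
Each point is a gene measured on both arrays, placed by its log2 difference, aged minus young, on the x axis, with 1 row per list and a red bar at the median of the list. The dark and pale bands hold the 25th to 75th and the 5th to 95th percentile of all 18693 genes, the grey line is their median, and the dotted lines mark 2-fold. The set of 8 genes centres on 0.09 like all genes, whereas macrophage and fibroblast markers centre on -1.21 and -1.44.

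The cells carried the markers of gland epithelium, and markers of other cells differed between the arrays. Of 7 epithelial markers, 6 were measured on both arrays and none of these differed by 1.5-fold, though 1 did under some alternatives. The seventh, Krt19, a keratin of duct cells, was well above background only in the young sample, with an intensity of 34.2, and was there at least 1.85-fold higher than in the aged sample. The summed level of the 6, in multiples of the 75th percentile, was 496 in the young sample, against 554 in the aged sample. Most of this sum came from Krt18 and Krt8, the brightest of the 6. The 6 differences ran from -0.55 (Cldn4) to 0.54 (Krt7). Their median of 0.13 ranged from -0.35 to 0.30 over the alternatives. Epcam itself had an intensity of 1778 in the young sample, against 1573 in the aged sample, giving a log2 difference of 0.20. Of 6 markers of macrophages and dendritic cells, among them Adgre1, Csf1r and Cd68, all 6 were lower in the aged sample by 1.5-fold or more and 4 of them by 2-fold or more, with a median of -1.21 and a summed level of 47.0 in the young sample, against 27.2 in the aged sample. These are values of the brightest probes. A second probe measured on both arrays gave -0.08 for Csf1r and 0.42 for Itgax, but -1.47 for Cd68 and -0.66 for Cd14. Of 6 fibroblast markers, 5 were measured on both arrays and all 5 were lower by 1.5-fold or more, with a median of -1.44 and a summed level of 18.4 in the young sample, against 8.63 in the aged sample. Both lists lay below 0 in full under each alternative, with medians between -1.46 and -1.02 (macrophages and dendritic cells) and between -1.70 and -1.03 (fibroblasts). The macrophage and dendritic cell markers past 1.5-fold were 4 with centring on the median and 5 with the mean over kept probes. Normexp left 4 fibroblast markers past 1.5-fold. The part of macrophages, dendritic cells and fibroblasts in the lower values of Lipa, Lrp1, Scarb1 and Apoe was not tested. Fewer cells of a type and less RNA per cell cannot be told apart in such bulk samples. Of 6 adipocyte markers, Adipoq, Plin1 and Cidec were not well above background in either sample and Retn only in the young one, while Fabp4 and Lep were measured on both arrays, with log2 differences of 0.26 and -0.05.

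Promoter sequences bear on genes that SREBP-2 is known to control together, and the RefSeq promoter table (GRCm38.p6, 250 bases before to 50 after each start) held 5 of the 8 genes, namely Hmgcs1, Idi1, Lss, Insig1 and Srebf2. The core of a sterol regulatory element, TCACNCCA, was searched on both strands and was present in 2 of these 5 promoters. The stretches around both matches are shown with the match in capitals, both on the plus strand. The match itself begins 137 bases before the start of Hmgcs1 and 162 bases before the start of Srebf2. The whole stretches lie at chr13:119690198-119690237 (Hmgcs1) and chr15:82147091-82147130 (Srebf2).
Hmgcs1 promoter: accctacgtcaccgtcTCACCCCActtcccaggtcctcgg
Srebf2 promoter: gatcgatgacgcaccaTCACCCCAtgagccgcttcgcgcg
These letters occurred in 4.36% of the 32851 promoters in the table. The NF-Y box, CCAAT, whose factor binds beside SREBP at many sterol genes, was present on either strand in 5 of 5 promoters, with 4 matches in Hmgcs1, 2 in Idi1 and 1 in each of the others, beside 37.4% of all promoters. The E-box CACGTG was present in 1 of 5, Insig1, beside 7.15% of all promoters. A match describes the sequence and does not show that a factor binds there. Hmgcs1 and Srebf2, which hold these letters, had log2 differences of -0.26 and 0.09 between the ages. Idi1 (-0.09), Insig1 (0.09) and Lss (0.68) had no match to them in this window. The lack of a match to these exact letters does not show that a promoter lacks a sterol element. A link between matches and differences was not tested.

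The call of Lss at 1.5-fold depended on the scaling. Under the scaling used here and 11 other ways of processing the arrays, Lss lay between 0.43 and 0.86, above 0 in all 12 and past 1.5-fold in 8 of them. Most settings shift all genes alike or leave these probes as they are, so that in 8 of the 12 the gap between Lss and the median of the other 7 genes was fixed at 0.59. In the 4 that could move it (quantile normalization, loess, normexp and the mean over kept probes), the gap was 0.56 to 0.75. The signs of the smaller differences depended on the scaling: Sqle lay between -0.08 and 0.35, Idi1 between -0.34 and 0.09, Fdps between -0.07 and 0.38, Fdft1 between -0.26 and 0.17, Insig1 between -0.17 and 0.26 and Srebf2 between -0.24 and 0.26. Hmgcs1 lay below 0 throughout, between -0.51 and -0.09.

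**Figure D4:**
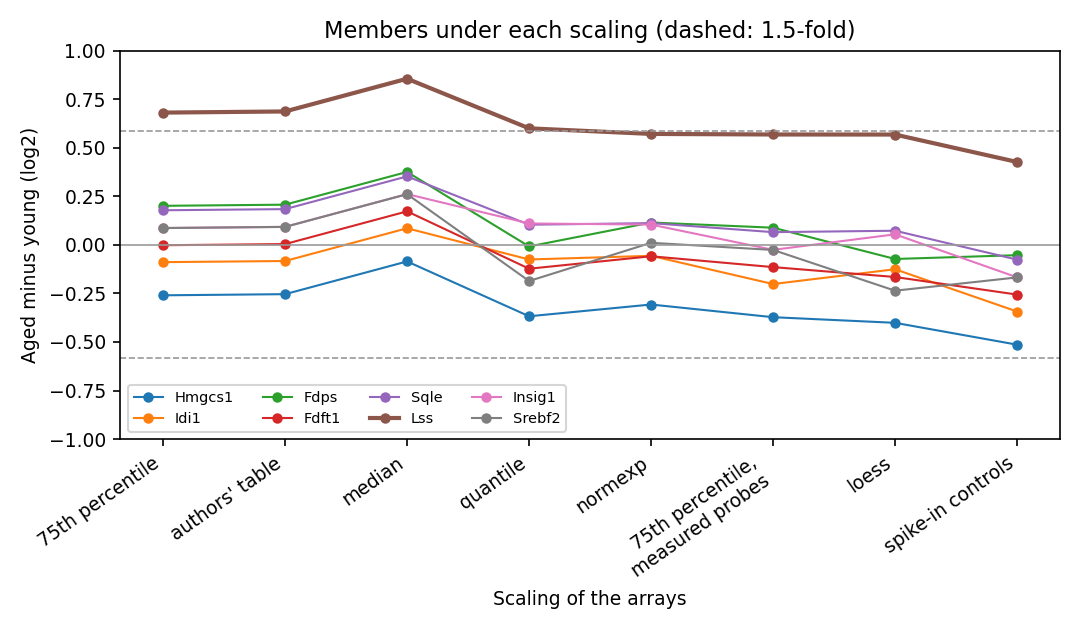
The y axis is the log2 difference, aged minus young, of the brightest probe, with 1 line per gene of the set, and the x axis lists 8 ways of setting the arrays level. Dashed lines mark 1.5-fold. Lss lies between 0.43 and 0.86, above the other 7, and crosses the upper dashed line.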

How the data were processed

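Total RNA of EpCAM-selected submandibular gland cells of 1 young and 1 aged mouse was labelled with Cy3 and hybridized by the authors to Agilent 8 × 60K mouse arrays, 1 array per age on 1 slide. The deposited scanner files (Feature Extraction 12.0.3.1) give the intensity of each spot after background subtraction and detrending, without scaling between arrays. The authors' processed table (signal) holds these intensities divided by 229 (young) or 176 (aged). From the intensities, log2 of the processed signal was set relative to the 75th percentile of the 59305 spots that are not controls. Outlier spots (90 and 93) were left out. A probe was measured if over 0.5 of its spots were well above background, and kept if measured on at least 1 array. Signal over background limits precision: 55.4% (young) and 50.8% (aged) of the spots were well above background. The number of arrays allowed no test. The 2-fold threshold is that of the study's methods. Where a probe was measured on 1 array, the other array was set to its lowest measured signal (14.1 young, 14.3 aged) or the probe's own value, if higher.

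The genes, lists and named genes were chosen with earlier results of these data known. Named were the 8 genes, some listed genes of the pathway chosen for their known roles, and any other gene of the cholesterol, isoprenoid and fatty acid lists past 1.5-fold. Cell type markers were summarised by list. Some listed genes are counted in the lists but not reported here singly. Acat2 and Trac had no probe under these names. Python 3.11.15 (numpy 2.4.6, pandas 2.3.3, matplotlib 3.10.9) and R 4.3.3 with limma 3.58.1 were used, and the steps were tested on simulated data. The remaining marker lists covered acinar, granular duct, myoepithelial, adipocyte, B and plasma, T and endothelial cells. Of the genes of these lists measured on both arrays, the median log2 differences were 0.16 (acinar), -0.12 (granular duct), -0.08 (myoepithelial), 0.10 (adipocyte), -1.96 (B and plasma), 0.56 (T) and -0.55 (endothelial). In the acinar list, 3 genes were above 0 (Aqp5 0.49, Prol1 0.38, Dcpp1 0.37) and 3 below (Bhlha15 -0.04, Muc19 -0.89, Smgc -1.79). In the myoepithelial list, 2 were above 0 (Krt14 0.25, Krt5 0.03) and 3 below (Acta2 -0.08, Myh11 -1.83, Cnn1 -2.14). A second probe measured on both arrays gave 0.12 for Myh11 and -1.96 for Acta2. The alternatives used median centring, a 75th percentile restricted to probes measured on both arrays, quantile normalization, loess (span 0.7, 3 iterations), normexp (offset 50), 8 spike-in probes, outliers kept, the mean over kept probes, 2 other filters on dim probes and the authors' table.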

Additional observations from a re-analysis of the deposited data

How the results depend on the processing

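With 1 array per age no array could be left out. No paired analysis was possible because each age has a single array. Under all 11 alternatives, 0 of the 8 genes were at least 2-fold lower and 0 were at least 1.5-fold lower. The number at least 1.5-fold higher, 1, became 0 with the 75th percentile over probes measured on both arrays, loess, the spike-in controls and normexp, since Lss then lay between 0.43 and 0.57. The median of the 8 genes, 0.09, became -0.17 with the spike-in controls. The median of the 20 synthesis enzymes, 0.18, became -0.031 with loess and -0.079 with the spike-in controls. These settings move all genes as well: the median of all genes shifted by 0.17 with centring on the median, by -0.11 with the 75th percentile over measured probes, by -0.13 with loess and by -0.25 with the spike-in controls, and relative to it the median of the 8 genes stayed between -0.07 and -0.0075 throughout. Of all genes past 2-fold, 33.3% were higher, against 52.7% with centring on the median and 14.1% with the spike-in controls. Past 1.5-fold upward were 9.82% of all genes, and between 2.37% (spike-in controls) and 19.5% (centring on the median) under these alternatives. Cyp51 reversed from -0.63 to 0.35 with the mean over kept probes, because its probes disagree. Of 253 values of 23 listed genes under the 11 alternatives, 216 moved by less than the software error of the spot, 36 moved by more and 1, that of Cyp51, changed the sign of a difference past 1.5-fold. Some of the smaller differences changed sign as well.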
